A study of Mus musculus with 20 samples.

Results

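The astrocyte water channel gene Aqp4, the genes that anchor it at the endfoot, and the genes of astrocyte coupling were followed library by library after experimental brain injury. The 8 genes were picked by name for their known roles: Aqp4, Dag1, Dtna, Gja1, Gjb6, Gjb2, Mlc1 and Hepacam. All 8 were found among the 39017 gene identifiers of the count table. Astrocytes and microglia were sorted from the injured-side forebrain of adult male C57BL/6 mice at day 7 after lateral fluid percussion injury (FPI), in which a pulse of fluid strikes the exposed dura, or after sham surgery without the pulse. The authors' methods give the strain as C57BL/6J. Each library came from 1 animal. Each cell type had 5 sham and 5 FPI libraries, 20 in all. Astrocytes were gated on ACSA-2, an epitope of the sodium pump subunit encoded by Atp1b2, and microglia on CD11b with intermediate CD45.

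An astrocyte endfoot is the process that wraps a brain vessel. Its membrane is packed with the water channel encoded by Aqp4, held in place by the dystrophin complex: dystroglycan, the product of Dag1, binds laminin and agrin of the vessel's basement membrane, and dystrobrevin alpha, the product of Dtna, sits on the inner side. Astrocytes are also joined to each other by gap junctions, channels made of connexins that pass ions and small metabolites; Gja1 and Gjb6 encode their main connexins and Gjb2 a further one. Mlc1 and Hepacam encode partner membrane proteins that take part in ion and volume regulation, and the Hepacam product, GlialCAM, is an adhesion molecule at contacts between astrocytes.

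Total counts per library were 7998479 to 10917112 in sham astrocytes (median 9300923) and 6470553 to 10194999 in FPI astrocytes (median 7878739). In microglia they were 5623349 to 13110857 in sham (median 8188128) and 6890710 to 8396868 in FPI libraries (median 8054415). The astrocyte libraries of replicates 4 and 5 stood apart from those of replicates 1 to 3 in many genes, so the sets are kept apart throughout, with 3 and 2 libraries per condition. Their library names carry sample numbers 61 to 69 for replicates 1 to 3 and 70 to 75 for replicates 4 and 5, and no label says what separates them. The name of FPI astrocyte replicate 5 bears a microglia letter and the animal number of FPI astrocyte replicate 2. It was kept as an astrocyte library by its title, and its summed level of 10 astrocyte markers was 15340.3 CPM, which are counts scaled to a common library total with TMM factors, against 593 CPM in the highest microglia library. By their names 3 animals gave both a microglia and an astrocyte library: those of sham astrocyte replicates 4 and 5 and of FPI astrocyte replicate 3. By the number in its name, FPI astrocyte replicate 5 would share an animal with FPI astrocyte replicate 2, which is in the other replicate set. The main fits took these libraries as independent.

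The sorted cells carried the markers of their gate. The summed level of the 10 astrocyte markers was 20709 ± 7872 CPM in sham and 19457 ± 7479 CPM in FPI astrocytes (SD, n = 5 each), led by the glutamate transporter gene Slc1a2, and 365 ± 121 CPM in the 10 microglia libraries. The 10 microglia markers summed to 42.0 ± 12.99 CPM in sham astrocytes and 140.5 ± 76.3 CPM in FPI astrocytes, and to 31418 ± 4739 CPM in microglia. No marker of either list was at 0 in all 10 astrocyte libraries. RNA of other cells was also present: 10 oligodendrocyte markers summed to 8661 ± 7146 CPM in sham and 8975 ± 3681 CPM in FPI astrocytes. They exceeded the astrocyte markers in sham replicate 4, at 20212 against 9823 CPM. The same held in FPI replicate 4, at 12568 against 11469 CPM.

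The water channel gene and its anchors lie on 2 chromosomes in the GRCm38 annotation. Aqp4 (ENSMUSG00000024411) covers chr18:15389496-15410982 on the minus strand, Dtna (ENSMUSG00000024302) chr18:23415135-23659715 on the plus strand and Dag1 (ENSMUSG00000039952) chr9:108204634-108263958 on the minus strand. Aqp4 and Dtna each overlap 1 annotated antisense gene; whether strand was used in counting is not given in the sources used here, so reads of such a pair cannot be told apart. The genes of the GlialCAM complex are Mlc1 (ENSMUSG00000035805) at chr15:88955884-88979007 on the minus strand and Hepacam (ENSMUSG00000046240) at chr9:37367351-37386575 on the plus strand, with no overlapping gene.

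Per kilobase of summed exons, the connexin gene Gja1 had the highest level of the 8 in sham astrocytes, at 207 ± 110.3 CPM per kb (SD, n = 5), and Hepacam followed at 199 ± 69.2 CPM per kb. Aqp4 had 147 ± 62.4 and Mlc1 142 ± 51.3 CPM per kb. A lower group held Gjb6 at 70.9 ± 38.5, Dag1 at 55.8 ± 17.99, Dtna at 18.7 ± 4.23 and Gjb2 at 8.71 ± 5.24 CPM per kb. Some neighbours in this order did not differ beyond their spread: Gja1 was above Hepacam in 3 of 5 sham libraries, Aqp4 above Mlc1 in 4 of 5 and Gjb6 above Dag1 in 3 of 5. Each of the other neighbours kept its place in all 5 sham libraries. In FPI astrocytes the order was Gja1, Aqp4, Hepacam, Mlc1, Gjb6, Dag1, Dtna and Gjb2, with Aqp4 above Hepacam in 3 of 5 libraries.

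The connexin genes sit apart from these. Gja1 (ENSMUSG00000050953) covers chr10:56377330-56402513 on the plus strand. Gjb6 (ENSMUSG00000040055, chr14:57123303-57133611) and Gjb2 (ENSMUSG00000046352, chr14:57098600-57104702) are neighbours on the minus strand, 18600 bases apart, with 1 annotated gene between them. The 250 bases before their start sites, from RefSeq on GRCm38.p6, are shown for the 3 connexin genes, all called lower in replicates 4 and 5 on the TMM scale, as were 3 others of the 8 genes. Of the 8 genes 6 matched an entry. Capitals mark a match to any of 7 motifs searched on both strands. These were TTGGCA for nuclear factor I, ACAAAG or else ACAATG for SOX factors, TGAGTCA for AP-1, TTCCNGGAA for STAT factors, GGGCGG for the GC box and TATAAA for the TATA box. Each is written from its 5′ end, on the gene's own strand.
Gja1, chr10:56377050-56377299, plus strand: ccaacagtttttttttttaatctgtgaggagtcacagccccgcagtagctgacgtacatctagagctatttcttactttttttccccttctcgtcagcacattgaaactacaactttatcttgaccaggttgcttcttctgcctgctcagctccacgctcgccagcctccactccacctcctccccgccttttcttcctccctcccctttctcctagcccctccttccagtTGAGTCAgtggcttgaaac
Gjb6, chr14:57133612-57133861, minus strand: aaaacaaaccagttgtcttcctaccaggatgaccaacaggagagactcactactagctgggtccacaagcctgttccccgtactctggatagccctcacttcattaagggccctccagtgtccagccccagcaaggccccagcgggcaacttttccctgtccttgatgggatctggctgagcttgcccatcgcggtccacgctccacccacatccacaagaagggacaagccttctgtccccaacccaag
Gjb2, chr14:57104703-57104952, minus strand: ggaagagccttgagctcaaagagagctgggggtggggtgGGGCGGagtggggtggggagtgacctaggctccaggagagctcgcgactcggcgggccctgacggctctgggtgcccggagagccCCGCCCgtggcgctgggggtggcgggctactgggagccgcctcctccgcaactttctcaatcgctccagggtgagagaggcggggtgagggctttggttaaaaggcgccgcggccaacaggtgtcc

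The Gja1 promoter window held TGAGTCA, the AP-1 motif, at -19 to -13 from the start site, a motif found in 4.46% of 32817 promoter windows of the same length. The Gjb2 window held 2 copies of GGGCGG, the GC box, at -211 to -206 and, on the other strand, at -126 to -121, and 32.7% of windows hold this motif. None of the 7 motifs was in the Gjb6 window. Of the windows not shown, that of Hepacam held TTGGCA at -39 to -34 and that of Mlc1 held none of the motifs. The windows of Dag1 overlap and held the same 3 copies of GGGCGG. The share of windows with the other motifs was 12.3% for TTGGCA, 16.5% for ACAAAG, 10.7% for ACAATG, 0.914% for TTCCNGGAA and 12.4% for TATAAA. The Gjb2 window had a GC content of 69.2% with 18 CpG, that of Gjb6 56.8% with 5 CpG and that of Gja1 50% with 6 CpG. A match describes letters only.

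To ask whether injury moved these genes, FPI and sham astrocytes were compared with edgeR. Calls needed a log2 fold change beyond 0.6 in either direction and an adjusted p under 0.1. None of the 8 genes was called, while 1 of the 13741 genes tested was (0.00728%). On the TMM scale no member had groups that did not overlap, against 93 of all genes (0.677%). The called gene was Ctss, which encodes the microglial protease cathepsin S, at 26.3 CPM in FPI and 1.15 CPM in sham astrocytes. The log2 fold changes of the 8 genes ran from -0.41 to 0.09 with a median of -0.12, against -0.01 over all genes, and their unadjusted p ran from 0.232 to 0.801, while 319 genes in all had an unadjusted p under 0.05. DESeq2 called 23 genes and none of the 8, with 385 genes at an unadjusted p under 0.05. With any 1 library left out, none of the 8 was called and the count over all genes was 0 to 3: 3 without FPI replicate 1, 2 without sham replicate 5 or FPI replicate 3, and 0 without any of the other 7.

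The comparison between the replicate sets gave the larger differences. The sets were split because their libraries stood apart in these same counts. The p and calls between them therefore describe that split and are no independent test. With condition in the model, 6 of the 8 genes were called lower in replicates 4 and 5 (Aqp4, Gja1, Gjb6, Gjb2, Mlc1 and Hepacam) on the TMM scale, and none when libraries were scaled to astrocyte markers, where Dag1, Dtna, Mlc1 and Hepacam turned higher. Of all 13741 genes 1168 were called on the TMM scale (8.5%), 773 of them lower (5.63%). In 4 of the 8 (Aqp4, Gja1, Gjb6 and Mlc1) every replicate 4 or 5 library lay below every replicate 1 to 3 library, as in 761 of all genes (5.54%). The median log2 fold change of the 8 was -0.89, against 0.03 over all genes. DESeq2 and edgeR with RLE factors called the same 6. Fewer astrocytes among the sorted cells and less RNA per cell cannot be told apart in these libraries, and the sets carry no label for day, batch or operator.

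Single libraries moved the calls. Aqp4, Gja1 and Gjb6 were called with each of the 10 libraries left out in turn, with log2 fold changes from -1.20 to -0.99, -1.44 to -1.15 and -1.65 to -1.37. Of these 10 fits Mlc1 was called only in that without FPI replicate 5, and its adjusted p (edgeR) in the others ran from 0.104 to 0.218. Gjb2 lost its call without sham replicate 1, 3, 4 or 5 or FPI replicate 1 or 4 (adjusted p 0.104 to 0.220, edgeR), and Hepacam without sham replicate 5 (adjusted p 0.182, edgeR). The count over all genes was 698 without sham replicate 1, 664 without sham replicate 4, 438 without sham replicate 5 and 670 without FPI replicate 4, and 3 of the 8 were called without sham replicate 5. By direction, DESeq2 called 726 genes higher and 860 lower in replicates 4 and 5, against 395 and 773 with edgeR.

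**Figure D1:**
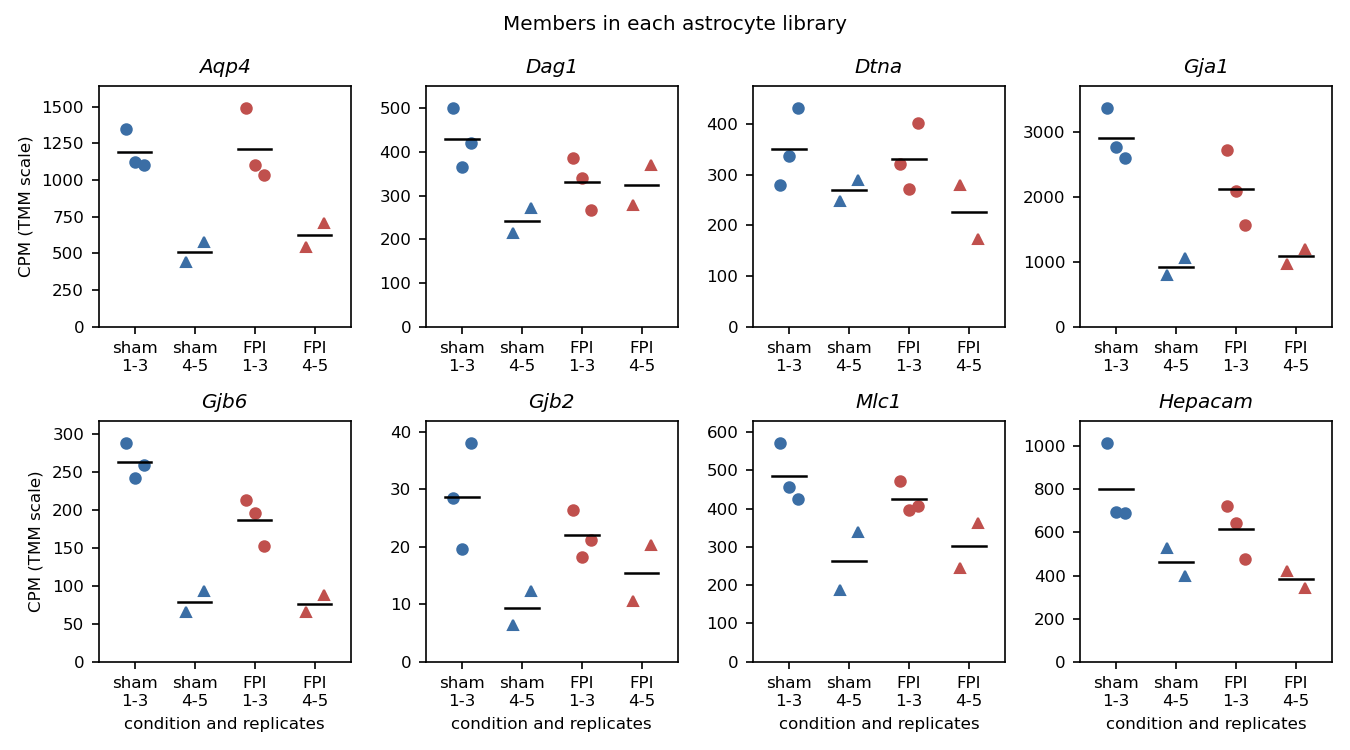
CPM on the TMM scale (vertical axes, from 0) of each of the 8 genes in each astrocyte library, by condition and replicates (horizontal axes); circles are replicates 1 to 3, triangles replicates 4 and 5, and bars the mean of each set. In Gjb6 the 4 libraries of replicates 4 and 5 lie between 64.8 and 92.6 CPM and the other 6 between 153 and 288 CPM.

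Aqp4, the water channel gene, had 1349, 1123, 1102, 440.0 and 577 CPM in sham astrocyte replicates 1 to 5 and 1492, 1105, 1037, 547 and 708 CPM in FPI replicates 1 to 5. The low libraries were replicates 4 and 5 in either condition, and the conditions overlapped on the TMM scale. The means were 978 ± 368 CPM in FPI and 918 ± 389 CPM in sham astrocytes (SD, n = 5 each), a log2 fold change of 0.09 with a 95% interval of -0.67 to 0.85. Left-out libraries turned this small difference, to -0.09 without sham replicate 4, -0.04 without sham replicate 5 and -0.13 without FPI replicate 1. Between the sets, Aqp4 was 2.12-fold lower in replicates 4 and 5, at 568 ± 110.3 CPM (n = 4) against 1201 ± 178 CPM (n = 6), or -1.09 on the log2 scale with an SE of 0.19 (edgeR adjusted p = 0.0123).

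Dag1, which encodes dystroglycan, had 501, 367, 419.8, 215 and 271 CPM in the 5 sham libraries and 386, 340.3, 267, 279 and 370.4 CPM in the 5 FPI libraries. Replicates 4 and 5 were the low ones in sham astrocytes only; in FPI astrocytes the sets overlapped. The log2 fold change between FPI and sham was -0.11 (95% interval -0.63 to 0.40), and 0.02 without sham replicate 1. Between the sets it was -0.41 (95% interval -0.87 to 0.04; adjusted p = 0.292, edgeR), so Dag1 did not pass. Dtna, for dystrobrevin alpha, ranged from 247 to 432 CPM in sham and from 174 to 402 CPM in FPI astrocytes, and its sets overlapped in both conditions. Its log2 fold changes were -0.13 between FPI and sham and -0.46 between the sets (95% interval -0.89 to -0.04; adjusted p = 0.206, edgeR).

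Gja1, the most abundant connexin gene, had 3377, 2777, 2607, 799.5 and 1059 CPM in sham replicates 1 to 5 and 2719.7, 2099, 1570.4, 968 and 1208 CPM in FPI replicates 1 to 5. As for Aqp4, replicates 4 and 5 of both conditions were the low libraries. FPI astrocytes averaged 1713 ± 706 CPM and sham astrocytes 2124 ± 1131 CPM (SD, n = 5 each), with a log2 fold change of -0.31 and a 95% interval of -1.22 to 0.60. Between the sets Gja1 was 2.47-fold lower in replicates 4 and 5, at 1009 ± 171 CPM against 2525 ± 621 CPM (-1.30 on the log2 scale with an SE of 0.23; edgeR adjusted p = 0.0137).

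Gjb6, the other main astrocyte connexin gene, gave 288, 242, 259, 64.8 and 92.6 CPM in the sham libraries and 213, 195, 153, 65.6 and 87.4 CPM in the FPI libraries. It had the widest gap between the sets of the 8 genes: 77.6 ± 14.5 CPM in replicates 4 and 5 against 225 ± 48.5 CPM in replicates 1 to 3, 2.85-fold lower (-1.51 on the log2 scale with an SE of 0.19; edgeR adjusted p = 0.00658; rank 6 by p among all genes tested). Between FPI and sham the log2 fold change was -0.41 (95% interval -1.36 to 0.54). Within replicates 1 to 3 the means were 187 ± 30.8 CPM in FPI and 263 ± 23.3 CPM in sham astrocytes (SD, n = 3 each). The fit of these 6 libraries alone gave -0.50 on the log2 scale (adjusted p = 0.676, edgeR). Within replicates 4 and 5 the means were 76.5 CPM in FPI and 78.7 CPM in sham astrocytes.

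Gjb2 was scarce, at 64 to 367 counts per sham library and 91 to 251 counts per FPI library, or 6.43 to 38.1 and 10.6 to 26.4 CPM. The sets were apart in sham astrocytes and overlapped in FPI astrocytes, where replicate 5 had 20.2 CPM. Its log2 fold change was -0.11 between FPI and sham (95% interval -0.99 to 0.76), turning to 0.18 without sham replicate 3 and 0.04 without FPI replicate 4, and -1.05 between the sets (SE 0.32, adjusted p = 0.0836, edgeR).

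The genes of the GlialCAM complex had the smaller differences of those called. Mlc1 had 573, 456, 426, 187 and 339.8 CPM in the sham and 472, 397, 407, 244 and 363 CPM in the FPI libraries, with a log2 fold change of -0.68 between the sets (SE 0.21, adjusted p = 0.0856, edgeR). Hepacam had 1016, 696, 690.3, 528 and 399 CPM in the sham and 724, 642, 478, 419.5 and 344 CPM in the FPI libraries, with -0.74 between the sets (SE 0.19, adjusted p = 0.0486, edgeR). FPI replicate 3 of Hepacam lay below sham replicate 4, so its sets overlapped across conditions though not within either. Between FPI and sham the log2 fold changes were -0.07 for Mlc1 (95% interval -0.68 to 0.54), 0.07 without sham replicate 1 and 0.05 without FPI replicate 4, and -0.35 for Hepacam (95% interval -0.96 to 0.26).

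**Figure D2:**
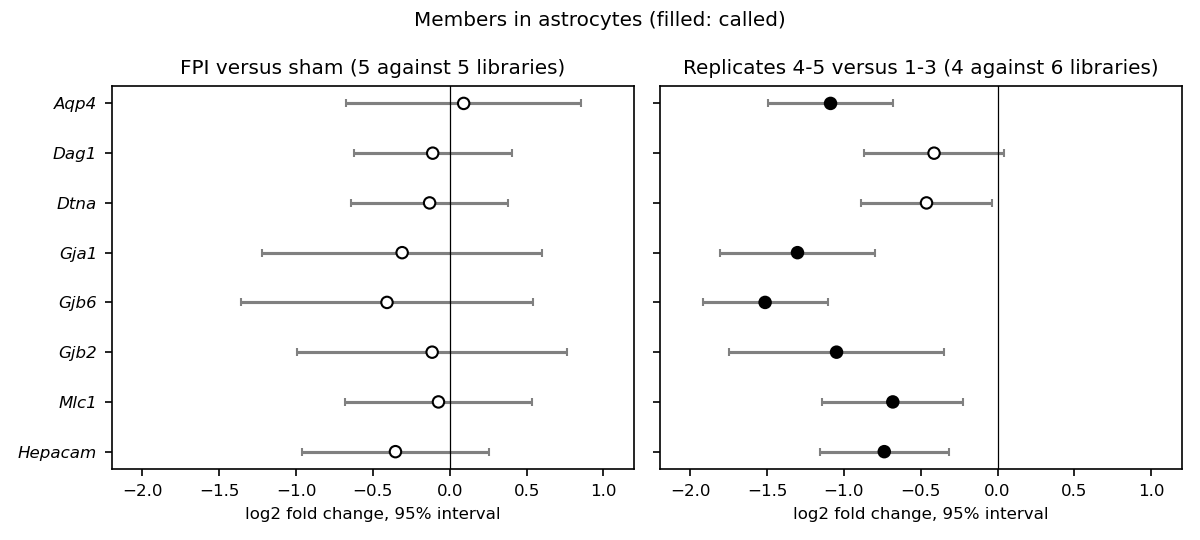
Log2 fold changes of the 8 genes (horizontal axes, TMM scale) with 95% intervals from edgeR, FPI versus sham on the left and replicates 4 and 5 versus 1 to 3 on the right; filled points are called. All 8 intervals cover 0 on the left, while on the right only that of Dag1 does. With scaling to astrocyte markers, which is not drawn, the set differences of Dag1, Dtna, Mlc1 and Hepacam are above 0.

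Whether the effect of FPI differed between the sets was tested by an interaction. No gene of 13741 was called in edgeR (0%, with 704 at an unadjusted p under 0.05) or in DESeq2 (797 under 0.05), and none of the 8. The smallest p of the 8 was that of Dag1 (0.0467, adjusted p = 0.863, edgeR), with a difference of 0.79 on the log2 scale. Its means were 325 CPM in FPI and 243 CPM in sham astrocytes of replicates 4 and 5. In replicates 1 to 3 they were 331 CPM in FPI and 429 CPM in sham astrocytes. Scaled to astrocyte markers, the median difference over all genes moved from 0.04 to -0.26 and that of Hepacam turned to -0.22. The set difference is therefore given for each condition without a claim that they differ. In sham libraries alone it was -1.22 for Aqp4, -1.64 for Gja1, -1.73 for Gjb6 and -1.61 for Gjb2, with 5 of the 8 called, Dag1 among them and Mlc1 and Hepacam not, where 1440 of 12131 genes were called. In FPI libraries alone it was -0.90, -0.92, -1.24 and -0.47 for the same genes, with no gene of 11743 called in edgeR and 996 at an unadjusted p under 0.05. Without the astrocyte libraries of the 3 animals that gave both cell types, an alternative chosen after seeing the data, Aqp4 had -1.05, Gja1 -1.15 and Gjb6 -1.42 and no gene was called (1515 under 0.05); this leaves no sham library in replicates 4 and 5.

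Markers of astrocytes and of other cells moved with the sets. Of the 10 astrocyte markers 9 were called lower in replicates 4 and 5, with a median log2 fold change of -1.03 over the list; examples are Fgfr3 (-1.09), Acsbg1 (-1.16) and Aldh1l1 (-0.86), and Atp1b2, the gene of the sorting antigen, was at 1014 CPM against 2141 CPM (-1.07, adjusted p = 0.0240, edgeR). Gfap, the gene of the reactive astrocyte filament, was the exception at 0.56, not called. The summed level of the list was 29822, 24061, 24033, 9823 and 15805 CPM in sham replicates 1 to 5 and 31408, 19802, 19267, 11469 and 15340.3 CPM in FPI replicates 1 to 5. Replicates 4 and 5 had 0.530 of the mean of replicates 1 to 3, and the 8 genes summed had 0.496 of it (2905 against 5859.9 CPM on the TMM scale).

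Markers of mural cells, the pericytes and smooth muscle of vessels, went the other way. All 10 were tested, 4 were called higher in replicates 4 and 5 (Acta2 at 2.56, Anpep at 1.48, Cspg4 at 1.61 and Pdgfrb at 1.09 on the log2 scale), and the list median was 1.53. Their summed level was 1274, 3347, 2454, 3765 and 7090.3 CPM in sham replicates 1 to 5 and 334, 3133, 3271, 5471 and 9718 CPM in FPI replicates 1 to 5, led by Vtn, so that every library of replicates 4 and 5 was above every other. Of 9 tested markers of oligodendrocyte precursors 4 were called higher, with Pdgfra at 1.66, Gpr17 at 2.44 and Cspg4 at 1.61, the last also a mural marker and the most abundant of this list. Their summed level was 601, 457, 364, 1045 and 923 CPM in sham replicates 1 to 5 and 648, 774, 617, 1157 and 1625 CPM in FPI replicates 1 to 5. Of 9 tested meningeal fibroblast markers, led by Ptgds, 3 were called higher (Col3a1 1.40, Igf2 1.14 and Col1a2 0.89).

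No marker of oligodendrocytes (10 tested; smallest p Mog, 1.13), endothelium (10 tested, led by Flt1; smallest p Itm2a, 1.15), neurons (8 tested, led by Tubb3, which also had the smallest p, 0.80), ependyma (10 tested, led by Rarres2; smallest p Foxj1, 0.32) or microglia (9 tested; smallest p Ctss, 0.87) was called between the sets by edgeR. All 10 oligodendrocyte markers (median log2 fold change 0.81) and all 10 endothelial markers (median 0.71) nevertheless had estimates above 0 on the TMM scale. The summed levels of these lists overlapped between the sets: in oligodendrocyte markers from 1919 to 20212 CPM over the 10 libraries. No marker of these lists was at 0 in all 10 astrocyte libraries. Of 10 immediate early genes, which respond to tissue dissociation and were led by Jun, 1 was called (Egr1, 1.14). The part of these other cells in the lower levels of the 8 genes was not tested.

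Set against the astrocyte markers, the 8 genes no longer shared a direction between the sets. Per 1000 counts of the 9 astrocyte markers other than Gfap, Gjb6 had 9.72, 10.1, 10.9, 6.74 and 6.01 counts in sham and 6.93, 10.3, 8.30, 5.99 and 6.22 counts in FPI replicates 1 to 5. The mean was 6.24 in replicates 4 and 5 and 9.37 in replicates 1 to 3, a ratio of 0.666, and the nearest values were 6.74 and 6.93. The ratio was 0.784 for Gja1, 0.912 for Aqp4 and 0.916 for Gjb2, and above 1 for Mlc1 (1.17), Hepacam (1.23), Dtna (1.40) and Dag1 (1.45). Dag1 had 12.6 to 17.9 counts per 1000 in replicates 1 to 3 of both conditions, 22.3 and 17.6 in sham replicates 4 and 5 and 25.4 and 26.4 in FPI replicates 4 and 5. The mean of Hepacam was raised by sham replicate 4, which had 54.9 counts per 1000 against 23.6 to 38.3 in the other 9 libraries.

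With libraries scaled to these 9 markers in edgeR, an alternative chosen after seeing the data, the median log2 fold change of all genes between the sets moved from 0.03 to 0.98 and that of the 8 genes from -0.89 to 0.05. On this scale 9621 genes were called higher and 20 lower. Gjb6 had -0.58 (adjusted p = 0.0292, edgeR) and Dag1 0.53 (adjusted p = 0.0453, edgeR), below the fold minimum, so none of the 8 was called. Gja1 had -0.34, Aqp4 -0.13, Gjb2 -0.15, Mlc1 0.23, Hepacam 0.29 and Dtna 0.49. Between FPI and sham the same scaling gave -0.24 to 0.25 for the 8 genes, with Dag1, Gjb2 and Mlc1 turning above 0. Per 1000 marker counts, Aqp4 had 48.6 to 58.3 counts in FPI and 37.5 to 47.0 counts in sham libraries. Its groups thus did not overlap there, at 52.7 ± 4.30 against 44.4 ± 3.89 counts, though Aqp4 was not called. Those of every other gene of the 8 overlapped. The share of all genes with groups apart was not computed on this scale.

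**Figure D3:**
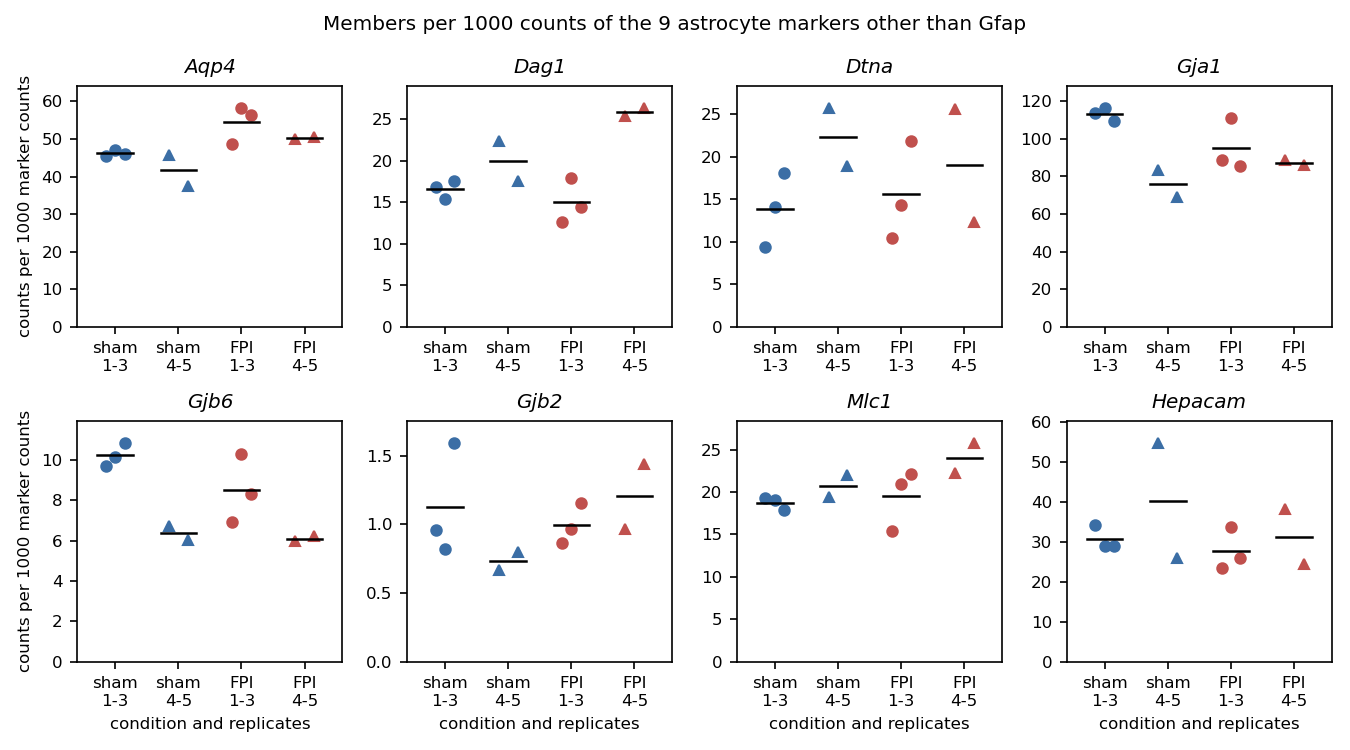
Counts of each of the 8 genes per 1000 counts of the 9 astrocyte markers other than Gfap (vertical axes, from 0) in each astrocyte library, by condition and replicates (horizontal axes); circles are replicates 1 to 3, triangles replicates 4 and 5, bars the mean of each set. The mean of Gjb6 is 6.24 in replicates 4 and 5 and 9.37 in replicates 1 to 3, whereas Dag1 is highest in FPI replicates 4 and 5, at 25.4 and 26.4.

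Other genes of the same structures did not move as a block. Among the 10 other dystrophin complex genes tested, the syntrophin gene Sntb1 was called higher in replicates 4 and 5 (log2 fold change 1.03, adjusted p = 0.0681, edgeR). Utrn, the most abundant of the list, had 0.38 and Dmd -0.02, neither called, and the list median was -0.04. Of 14 genes that build the laminin-binding sugar of dystroglycan, B4gat1 (-0.67) and Pomt2 (-0.62) were called lower, with a median of -0.07. The basement membrane genes, ligands and neighbours of dystroglycan, were the reverse of the 8 genes: 7 of 13 were called higher, none lower, with a median of 1.13. Lama1 (1.45), Lamc1 (1.18, the most abundant) and Agrn (0.68) had the smallest p. Their summed level, 958 to 2136 CPM in replicates 1 to 3 and 2168 to 4082 CPM in replicates 4 and 5, moved with the mural markers, and its source was not tested. These calls are on the TMM scale, and the counts were not repeated for these lists on the scale of astrocyte markers.

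Among 20 other connexin and pannexin genes, 7 were at 0 counts in all 10 astrocyte libraries and 6 were tested. Gja4, a connexin gene of vessel cells, was called higher in replicates 4 and 5 (1.86, adjusted p = 0.0851, edgeR), and none was called lower. Gjc3, an oligodendrocyte lineage connexin gene and the most abundant of the 20, had 1.12, not called. Of 7 scaffold genes, led by Tjp1 at 0.09, the cadherin gene Cdh2 (-0.66) and Dbn1 (-0.68) were called lower. Of 11 other aquaporin genes 3 were tested, led by Aqp11, and none was called by edgeR; 5 of the 11 had no count in any astrocyte library. Aqp1 had the smallest p of these, with 1.42.

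Ion and volume genes were split. Of 14 tested, 5 were called lower in replicates 4 and 5 and 1 higher. Slc4a4, a bicarbonate transporter gene (-1.26), Kcnj16, a potassium channel gene (-1.29), and Atp1b2 (-1.07) had the smallest p. The list median was -0.27. Between FPI and sham astrocytes no gene of these 7 lists was called in edgeR; the only unadjusted p under 0.05 among them was that of Pomgnt2 (log2 fold change -0.88, adjusted p = 0.999, edgeR). In the other 6 the smallest p belonged to Sntb2 (0.42), Lama5 (0.32), Gjc1 (0.57), Cav1 (0.95), Aqp9 (-0.52) and Slc4a4 (-0.29).

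**Figure D4:**
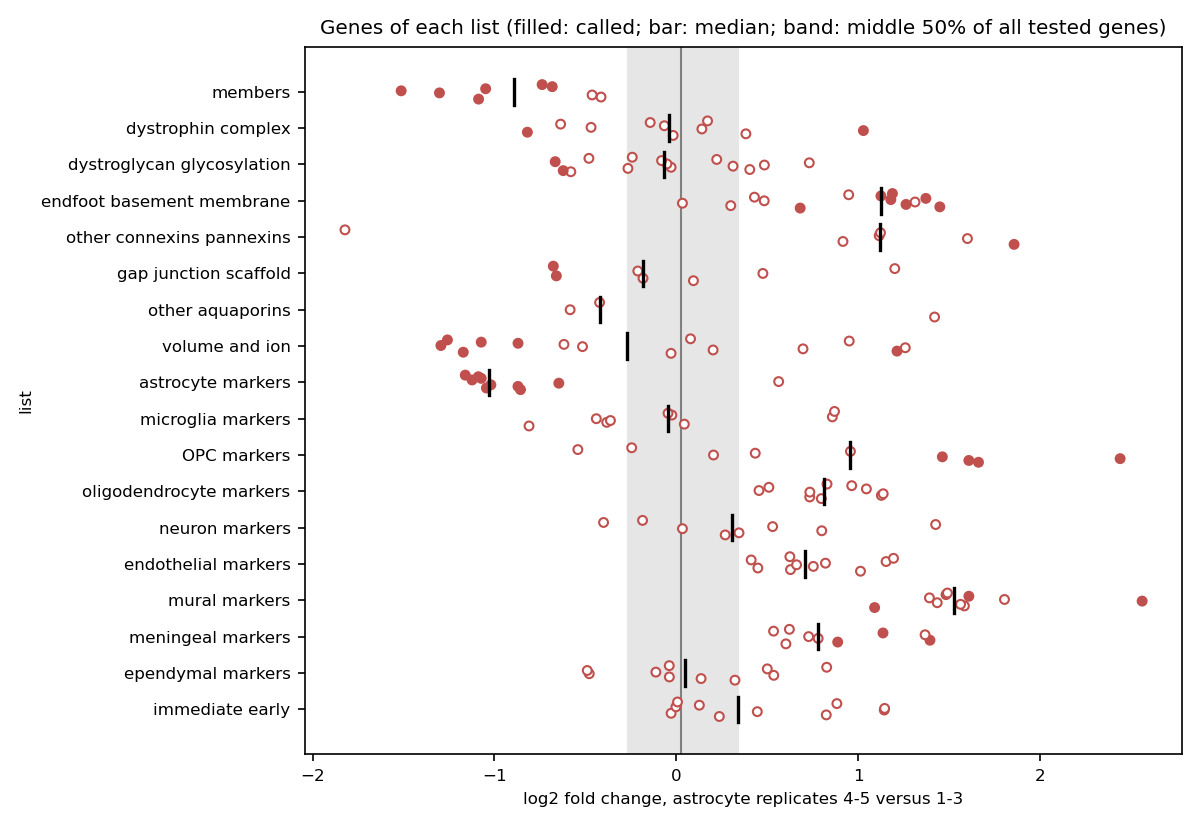
Log2 fold change between astrocyte replicates 4 and 5 and replicates 1 to 3 (horizontal axis, edgeR on the TMM scale) of every tested gene of each list (vertical axis, the 8 genes on top as members); filled points are called, black bars are list medians and the grey band is the middle 50% of all tested genes. The 8 genes (median -0.89) lie with the astrocyte markers (-1.03) and opposite the mural markers (1.53) and basement membrane genes (1.13). With scaling to astrocyte markers, which is not drawn, the median of the 8 is 0.05 and of all genes 0.98.

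Ctss was the only marker edgeR called between FPI and sham astrocytes, and the other markers, like the 8 genes, did not pass. Gfap was at 849.9 ± 285 CPM in FPI and 215 ± 109 CPM in sham astrocytes, with groups apart, and missed the call (log2 fold change 1.98, adjusted p = 0.151, edgeR). All 9 tested microglia markers were higher in FPI astrocytes, 7 of them at an unadjusted p under 0.05 and Ctss called, and FPI replicates 1, 2 and 5 had the highest sums, at 168, 178 and 233 CPM. Of the precursor markers, Tnr had 2.88 and Gpr17 4.14 with adjusted p of 0.589 and 0.828 (edgeR). The smallest p was held by Col1a1 (1.24) in the meningeal list, Fos (0.78) among immediate early genes, Foxj1 (0.60) in ependyma, Myh11 (0.56) in mural cells, Tie1 (0.64) in endothelium, Snap25 (-0.84) in neurons and Mbp (0.24) in oligodendrocytes, none called. Their part in the values of the 8 genes was not tested.

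In sorted microglia all 8 genes were called lower than in astrocytes, a direction that the choice of astrocyte genes fixes. In edgeR 9683 of 15077 genes differed between the cell types (64.2%), 5604 of them lower in microglia (37.2%). Hepacam had 4.02 ± 1.92 CPM in microglia and 599.8 ± 206 CPM in astrocytes (SD, n = 10 each), 148-fold lower. Gja1 was 129-fold, Dtna 108-fold, Mlc1 105-fold, Gjb6 93.2-fold, Aqp4 85.5-fold and Gjb2 33.7-fold lower. Dag1 stood out, at 59.7 ± 9.37 CPM in microglia against 345 ± 86.5 CPM in astrocytes, 5.77-fold lower, with 320 to 841 counts in every microglia library. Gjb6 had 0 counts in 2 of 5 sham microglia libraries and Gjb2 in 2 of 5 of either condition. With genes of at least 10 counts in every library only, 3 of the 8 were tested and all 3 were called, as were 4515 of all 8824 genes.

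**Figure D5:**
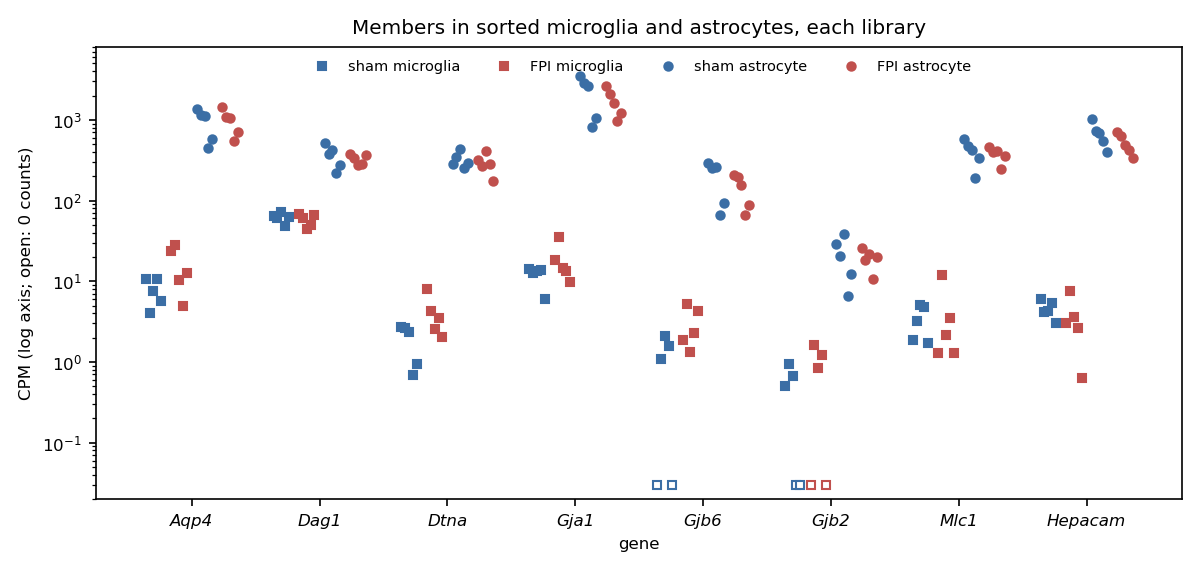
CPM on the TMM scale of the 20 libraries (log axis) of each of the 8 genes (horizontal axis) in each microglia library (squares) and astrocyte library (circles), sham in blue and FPI in red; open symbols at the bottom are libraries with 0 counts. For each gene the microglia libraries lie below the astrocyte libraries, with the narrowest gap for Dag1, at 44.0 to 72.02 CPM against 219.6 to 512 CPM.

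Between FPI and sham microglia 7 of the 8 genes were tested, Gjb2 being too scarce with 23 sham and 28 FPI counts in all. None was called by edgeR or DESeq2, and none had groups that did not overlap, against 285 of 12143 genes called (2.35%) and 391 not overlapping (3.22%). Aqp4 had the smallest p, at 16.4 ± 9.89 CPM in FPI and 7.79 ± 3.01 CPM in sham microglia (SD, n = 5 each; log2 fold change 1.08, adjusted p = 0.234, edgeR), and it was the 1 gene of the 8 at an unadjusted p under 0.05. It was called without FPI microglia replicate 4 (1.30, adjusted p = 0.0780, edgeR) and when every gene with at least 1 count was kept (1.07, adjusted p = 0.0770, edgeR). Gjb6 had 1.61, Dtna 1.12, Gja1 0.60, Mlc1 0.27, Dag1 -0.09 and Hepacam -0.39 on the log2 scale. Mlc1 turned to -0.68 without FPI replicate 2, and Dag1 to 0.005 without FPI replicate 3. The count over all genes was 177 without sham replicate 2 or FPI replicate 2.

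Astrocyte markers moved in the same microglia libraries. FPI microglia replicates 1 and 2 had the highest Aqp4, at 23.9 and 28.5 CPM on the scale of all 20 libraries, and the highest sums of the 10 astrocyte markers, at 593 and 574 CPM against 244 to 353 CPM in the other 8. Of 9 tested astrocyte markers, 1 was called higher in FPI microglia, Gfap (2.78, adjusted p = 0.00772, edgeR). The most abundant in microglia was Slc1a3. Cspg4 (2.29), a marker of mural cells and precursors, was also called higher. The part of astrocyte RNA in these values was not tested. In the fit of all 20 libraries the effect of FPI did not differ between the cell types at an adjusted p below 0.1 for any of the 8 genes; the smallest adjusted p was 0.592, for Dtna (edgeR).

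The genes most like the 8 were sought over the 10 astrocyte libraries by Pearson's r of log2 CPM with the mean of the 8. Among the highest were Slc41a1 (0.993), Astn1 (0.990), Pygb (0.990) and Elovl2 (0.989); within the 6 libraries of replicates 1 to 3 their r was 0.992, 0.988, 0.949 and 0.976. These 6 libraries are among the 10 by which the genes were chosen. For single genes the closest were Lxn for Aqp4 (0.985, within replicates 1 to 3 0.871), Fkbp10 for Dag1 (0.983 and 0.987), Zfp783 for Dtna (0.978 and 0.946), Ckb for Gja1 (0.995 and 0.984), Pfkm for Gjb6 (0.992 and 0.952), Amot for Gjb2 (0.972 and 0.940), Creg1 for Mlc1 (0.985 and 0.913) and Igsf11 for Hepacam (0.973 and 0.944). The libraries share depth and cell makeup, and the r is a description. Among the 8 themselves Gja1 and Gjb6 were the closest pair over 10 libraries, with 0.982, and had 0.945 over 6, where Dag1 and Hepacam were closest with 0.961. Dtna had the lowest values, with r from 0.09 to 0.55 with each of the other 7 over 10 libraries.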

How the data were processed

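The authors sequenced stranded total RNA libraries of sorted cells. Reads were aligned with HISAT2 2.1.0 to mm10 (GRCm38.p6), and the submitters' processing notes name featureCounts without a version or strand setting. The values used are the deposited counts of reads per gene, whole numbers without normalization. From them, CPM on the TMM scale were computed here. Each comparison was fitted with edgeR 4.0.16 in R 4.3.3 (default filter on low counts, TMM factors, quasi-likelihood F test, Benjamini-Hochberg adjustment over all genes tested). DESeq2 1.42.0, RLE factors, other filters, robust empirical Bayes, a replicate block, other sets of libraries and leaving out each library were alternatives. Microglia and astrocytes were fitted apart except for the contrast between them, where all libraries were taken as independent though 3 animals gave both. For the interaction no fold minimum was used. Fits were tested on simulated data. No 2 libraries of a group agreed within sampling noise (chi-square per degree of freedom 13.2 or more). Gene positions and summed exon lengths came from GENCODE M21, which held 37693 of the identifiers, a later release than the authors'. log2 CPM for correlations used a prior count of 2.

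The 8 genes and all lists were chosen with earlier results of these data known. From each list the text names the most abundant gene, the called genes (at most 3, by smallest p) or, with none called, that of smallest p. Dmd, Pdgfrb and Gfap, and Atp1b2 among the astrocyte markers, were added after their values were seen. Some genes that this rule names are not reported here.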

Additional observations from a re-analysis of the deposited data

Results flagged for a closer look

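In 6 of the 72 groups of 5 libraries examined, made of the 8 genes and the summed lists in the 4 groups, 1 library lay far from the other 4; chance alone sets 1 apart in about 5% of such groups. All 6 were in microglia. Of the 8 genes, Gja1 had 6.06 CPM in sham microglia replicate 5 against 12.8 to 14.2 CPM in the other sham microglia libraries. Mlc1 had 11.98 CPM in FPI microglia replicate 2 against 1.28 to 3.54 CPM in the others. The summed mural markers had 50.7 CPM in sham microglia replicate 1 against 25.1 to 29.6 CPM, and 81.7 CPM in FPI microglia replicate 1 against 28.4 to 41.5 CPM. In that FPI library the summed neuron markers had 11.2 CPM against 4.85 to 6.34 CPM. The summed ependymal markers had 8.61 CPM in FPI microglia replicate 4 against 2.70 to 4.35 CPM. None of the 8 genes had such a library among the astrocytes, and their effects of FPI did not differ between the cell types or the replicate sets by the tests in the report.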

How the results depend on the processing

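None of the 8 genes was called between FPI and sham astrocytes under any of the 23 alternatives. Over all genes the count there was 23 with DESeq2, 9 with every gene of at least 1 count, 11 with the replicate block, 53 with all 20 libraries fitted together, 6 with a term for replicates 4 and 5, 3 in replicates 1 to 3 alone, and 0 with robust empirical Bayes, a minimum of 10 counts in each library, an adjusted p below 0.05 without a fold minimum, scaling to astrocyte markers, FPI replicates 2 and 5 summed or replicates 4 and 5 alone (edgeR; 103 to 319 genes at an unadjusted p under 0.05). Leaving out a library gave 0 to 3. Directions turned for Gjb2 with the block (0.0549), the term (0.0364), replicates 4 and 5 alone (0.70) and marker scaling (0.15); for Dag1 (0.40 and 0.11) and Mlc1 (0.19 and 0.12) with replicates 4 and 5 alone and marker scaling; and for Gja1 in replicates 4 and 5 alone (0.21). With a library left out the ranges were -0.13 to 0.24 for Aqp4, -0.25 to 0.0193 for Dag1, -0.35 to 0.18 for Gjb2 and -0.25 to 0.0695 for Mlc1.

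Between the replicate sets the count was 2135 with every gene of at least 1 count, 9641 scaled to astrocyte markers, 0 in FPI libraries alone, 0 without the animals that gave both cell types, and 438 to 1633 with a library left out; of the 8 genes, 0, 0 and 0 were called in the 3 settings after the first, and 3 to 6 with a library left out. Marker scaling turned Dag1 (0.53), Dtna (0.49), Mlc1 (0.23) and Hepacam (0.29), and Dag1 had 0.0201 in FPI libraries alone. The fits without those animals or in 1 condition have fewer libraries; otherwise the cause was not tested. The interaction called 358 genes with every gene of at least 1 count; Hepacam had -0.22 with marker scaling and -0.0908 to 0.32 with a library left out, and Dtna -0.56 to 0.16. Summing FPI replicates 2 and 5 was not run for the sets or the interaction, since the sum would belong to both sets.

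Microglia against astrocytes gave 4515 genes, and 3 of the 8, with at least 10 counts in every library, where fewer genes are tested. Between FPI and sham microglia the count was 121 with all 20 libraries and 177 to 423 with a library left out; Mlc1 had -0.14 with the block and -0.68 to 0.49 with a library left out, and Dag1 -0.17 to 0.00487. The labels do not pair the libraries by replicate number. Same-numbered astrocyte libraries deviated with r of 0.45, -0.01, 0.24, 0.45 and 0.35, all but replicate 2 above the threshold of 0.1 set for pairing. Same-numbered microglia libraries had 0.09, 0.06, -0.07, 0.05 and 0.05, none above it. In neither cell type was every library closest to its own number. The block gave 11 called genes in astrocytes against 1 and 255 in microglia against 285, and changed no call of the 8 genes. Low counts limit Gjb2 and, in microglia, Gjb6.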
